A study of Drosophila melanogaster with 3 samples.

Results

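Pipsqueak (Psq) had 1089 peaks at internal alternative promoters, and some of these promoters held more than 1. The 1089 peaks were 10.8% of the 10105 peaks on the nuclear chromosome arms in the authors' optimal list. Binding was measured by chromatin immunoprecipitation followed by sequencing (ChIP-seq) in whole Drosophila melanogaster larvae of mixed sex that had reached the wandering stage of the third instar. All larvae were of 1 transgenic line that stably expresses Psq with GFP at its C-terminal end, and an antibody against GFP recovered the chromatin. The series holds 1 group of 3 biological replicates and no second condition. The comparisons are therefore between classes of promoter within the same libraries, and whole larvae give 1 signal over all tissues, in which few cells with strong binding and many cells with weak binding cannot be told apart.

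Members were chosen by position alone. A summit had to lie within 500 bp of a transcription start site (TSS), and its nearest TSS had to belong to a protein-coding gene and to lie more than 500 bp downstream of that gene's most upstream TSS. Summits near TSSs of 2 genes on opposite strands were left out. Members were compared with 693 peaks at first promoters, 1372 at promoters of genes without an internal TSS, and 5647 with no TSS in the window. A first promoter is the most upstream TSS of a gene that also has an internal one. TSSs of that gene up to 500 bp downstream of it count with it. Where TSSs rather than peaks are counted, a first TSS is only the most upstream one. The remaining 958 peaks near opposite-strand genes and 346 at noncoding genes were not compared further.

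The Psq protein carries a BTB domain, through which such proteins assemble, and DNA-binding domains that read GA-repeat DNA. The GAGA factor, encoded by Trl, reads the same repeats, and both proteins are known for work with Polycomb and trithorax group proteins. An alternative promoter lets 1 gene make transcripts with different 5′ ends, and sometimes different proteins, in different tissues or at different times. In the ecdysone response that ends larval life, classic regulators such as EcR, Eip74EF and Eip75B each use several promoters for their isoforms.

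The DNA under these peaks often held the short GA word that Psq reads. Windows of 101 bases around a summit are given 5′ to 3′ on the gene's strand, from the RefSeq sequence of dm6, and capitals mark GAGAG or its reverse complement CTCTC. The first 3 come from members among the 20 described below. Within the 101 bases they show the word single, scattered and as an unbroken repeat. Within 100 bp of its summit the Glut4EF member has 6 occurrences. Overlapping occurrences are counted, so an unbroken repeat counts more than once. Sequence in annotated UTRs is not shown, and the 5 windows are examples, not a ranking.
Glut4EF internal promoter, 3R:9928689-9928789, plus strand: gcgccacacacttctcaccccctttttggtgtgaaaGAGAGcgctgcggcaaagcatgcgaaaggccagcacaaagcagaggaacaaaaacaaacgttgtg
kis internal promoter, 2L:222036-222136, minus strand: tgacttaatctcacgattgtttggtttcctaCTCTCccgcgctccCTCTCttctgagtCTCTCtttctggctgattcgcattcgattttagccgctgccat
BNIP3 internal promoter, 3L:20517547-20517647, minus strand: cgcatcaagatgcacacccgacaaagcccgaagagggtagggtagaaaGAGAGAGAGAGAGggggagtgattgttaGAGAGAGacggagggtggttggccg

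Strong members without the word also occurred. The 2 shown are also among those 20, and neither holds GAGAG on either strand within 100 bp of its summit. The pyd window carries a run of CA instead.
mtd internal promoter, 3R:5281282-5281382, minus strand: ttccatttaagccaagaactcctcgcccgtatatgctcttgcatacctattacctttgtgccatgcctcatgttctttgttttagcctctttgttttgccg
pyd internal promoter, 3R:8846334-8846434, minus strand: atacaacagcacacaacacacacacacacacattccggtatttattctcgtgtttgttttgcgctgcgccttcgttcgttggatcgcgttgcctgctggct

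Within 1 gene the word can lie at an internal promoter and be absent from the window at the first. Tlk, which encodes the Tousled-like kinase, had a relative score of 5.15 ± 0.836 at the internal promoter shown and of 1.11 ± 0.800 at its first promoter (SD, n = 3). The peak at the first promoter also lies near a TSS of a gene on the opposite strand. The internal peak shown is the highest of the 7 members at Tlk. Another member, X:3772723-3773490, had 4.15 ± 1.04 (SD, n = 3) and no GAGAG within 100 bp of its summit. A relative score is a peak's score in a replicate over the median of the strong list, the 10138 peaks with the highest scores in the same replicate, so 1 is a typical strong peak.
Tlk internal promoter, X:3779869-3779969, plus strand: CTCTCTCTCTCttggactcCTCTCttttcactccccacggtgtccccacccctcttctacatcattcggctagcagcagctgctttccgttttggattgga
Tlk first promoter, X:3719882-3719982, plus strand: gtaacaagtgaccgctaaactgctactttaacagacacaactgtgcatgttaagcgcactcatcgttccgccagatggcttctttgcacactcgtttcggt

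Most internal promoter peaks were found in every replicate. Of the 1089 members, 749 (68.8%) had a summit within 200 bp in the strong list of all 3 replicates, 226 in 2 replicates, 89 in 1 and 25 in none. The share in all 3 was 65.2% at first promoters, 58.6% at promoters of genes without an internal TSS and 55.6% at peaks away from any TSS. The optimal list was itself made from these replicates, so these shares are a description. Taken from each replicate's own strong list, internal promoters held 10.8% of nuclear summits in every replicate (10.8% ± 0.029, SD, n = 3).

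Among internal promoters, scores ran from weak to very strong. The quartiles of the members' mean relative scores were 0.778, 1.22 and 1.96, and the highest reached 17.0. In the replicates' own lists the median at internal promoters was 1.17, 1.20 and 1.19, against 1.11, 1.08 and 1.11 at first promoters. Every replicate of the internal class lay above every replicate of the first class, and the difference was 0.0836 ± 0.0347 (SD, n = 3; exact paired sign-flip permutation test over replicates, two-sided, p = 0.25). With 3 replicates this test cannot give a p under 0.25, so no difference described here can pass a threshold of 0.05. The median at promoters of genes without an internal TSS was 1.05 ± 0.0430 (SD, n = 3), below all 3 internal values.

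The 20 members described next are those with the highest scores in the optimal list, which was called on all replicates together, among members found in all 3 replicates, and they belonged to 19 genes. Their order by mean relative score differs slightly, so that Rbfox1, at 6.40 ± 0.274, is not among them although it stands above kay (SD, n = 3). Of these 20 peaks, 17 had the summit in an intron and 3 in a 5′ UTR exon, 17 lay upstream of their TSS, and 14 held GAGAG within 100 bp. The highest lay at CG1910 (3R:31748055-31748785), with relative scores of 16.2, 15.2 and 19.7. EcR, the ecdysone receptor, followed at the TSS of transcripts RB and RC, 37165 bp downstream of its first TSS (2R:6131792-6132370), with 15.8, 15.98 and 16.9. Hr3, a nuclear receptor of the ecdysone cascade, had 11.9, 12.4 and 14.2 at a TSS 9391 bp into the gene (2R:10227955-10228324). These 3 peaks stood above the other 17 in every replicate. After them came lig, with 9.77 ± 1.16, and mtd, with 8.87 ± 0.862 (SD, n = 3). The lig summit lay 480 bp downstream of its TSS. Another member at that TSS, with its summit at −39 bp (upstream), had 4.00 ± 0.527 (SD, n = 3).

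Further peaks of the 20 lay in genes of several kinds. HmgZ, which encodes an HMG-box chromatin protein, had 2 internal peaks of 8.63 ± 0.713 and 7.51 ± 0.854 (SD, n = 3). The summit at ush, a zinc-finger partner of GATA factors, stood at 7.83 ± 1.12. It had 19 occurrences of GAGAG within 100 bp, overlapping ones included. A peak of 7.60 ± 1.39 was found at tou and one of 6.51 ± 1.03 at MEP-1, both of which encode proteins of chromatin complexes. The trithorax group remodeller gene kis had 6.56 ± 1.19, and the Polycomb group gene ph-d had 6.38 ± 0.731 (SD, n = 3 each). The ph-d value is uncertain, because a near-identical copy, ph-p, lies beside it.

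The summit at puc, a phosphatase gene that restrains the JNK kinase, had relative scores of 7.72, 9.58 and 8.54. For kay, which encodes the fly Fos protein, the values were 3.03, 8.09 and 7.87. Replicate 1 was therefore well under the other replicates at kay, whereas the 3 replicates lay close together at puc. Peaks of 6.91 ± 0.929 at pyd, a cell junction scaffold gene, and of 6.81 ± 1.20 at BNIP3, a gene of mitochondrial clearance, were also among the 20 (SD, n = 3). The remaining genes were Den1 with 7.79 ± 0.497, Glut4EF with 7.25 ± 1.75, east with 7.02 ± 0.405 and kra with 7.02 ± 0.556 (SD, n = 3).

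**Figure D1:**
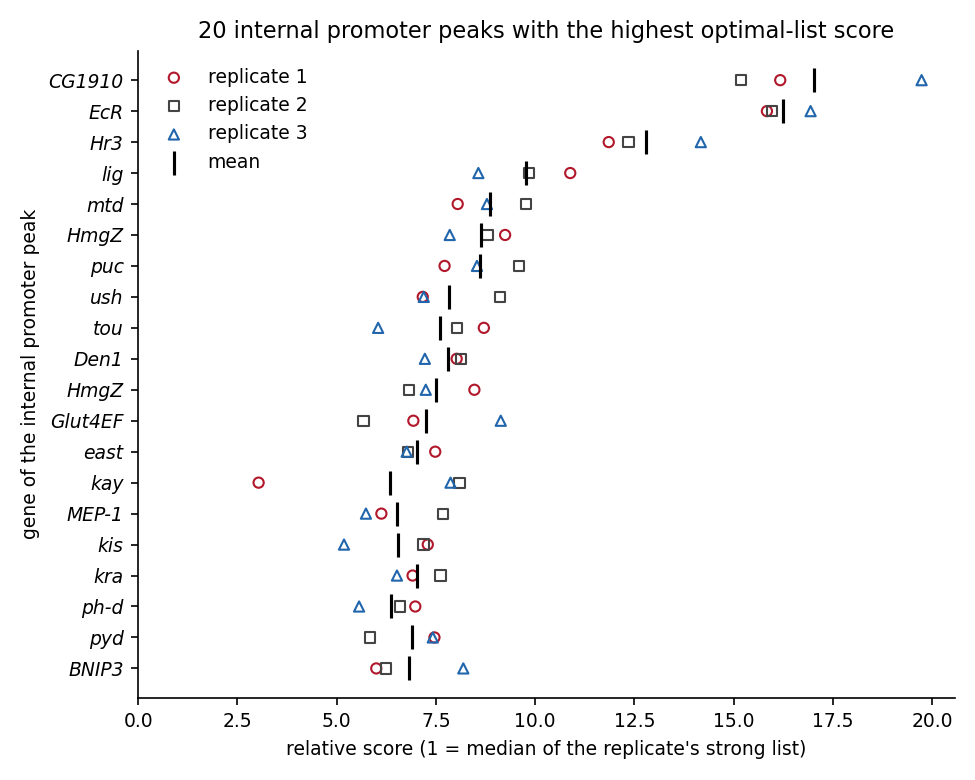
Relative score (x axis, 1 is the median of a replicate's strong list) of the 20 internal promoter peaks with the highest optimal-list scores among those found in all 3 replicates, with 1 symbol per replicate and a bar for the mean. The peaks at CG1910, EcR and Hr3 stand apart to the right, and replicate 1 at kay has the lowest value shown (3.03).

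About 1 internal TSS in 3 had a summit. Of 3143 internal TSSs with no TSS of an opposite-strand gene within 1000 bp, 986 had an optimal summit within 500 bp, which is 31.4%. First TSSs of the same kind of gene had one in 439 of 1256 cases (35%), and genes without an internal TSS had one at 934 of 7046 TSSs (13.3%). Across the replicates' own lists the internal share was 31.2%, 31.6% and 30.4%, the first share 34.3%, 36.2% and 33.8%, and the share at genes without an internal TSS 13.4% ± 0.414 (SD, n = 3). Internal TSSs thus stood below first TSSs in each replicate, by 3.68 ± 0.810 percentage points, and above the TSSs of genes without an internal one by 17.7 ± 0.266 points (SD, n = 3; exact sign-flip tests, two-sided, p = 0.25 each).

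Distance from the first promoter made little difference. The share of internal TSSs with a summit was 34.3% ± 0.862 at 500 to 1000 bp from the first TSS, where a summit between both can count for each. It was 28.6% ± 1.84, 29.8% ± 1.30 and 29.7% ± 1.35 in the next 3 ranges, up to 10000 bp. Beyond that it was 32.0% ± 0.365 up to 20000 bp and 33.3% ± 1.11 further away (SD, n = 3 each). Median relative scores of members were 1.15 in the nearest range and 1.38 and 1.30 in the last 2. The large arms hardly differed, with shares from 30.4% on 2R to 32.2% on 3L, and on chromosome 4, with 37 internal TSSs, it was 5.41%.

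**Figure D2:**
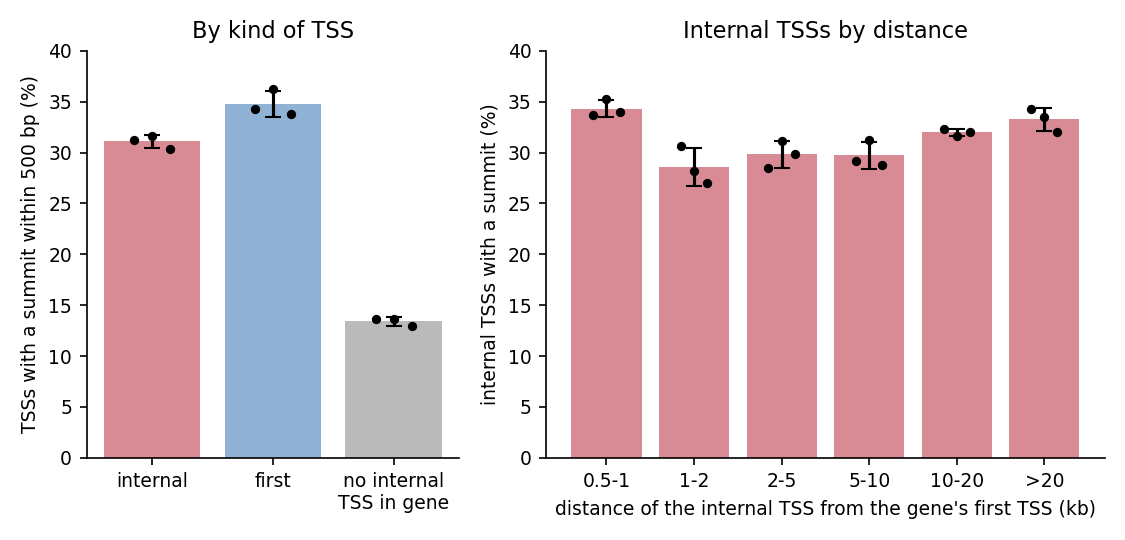
Share of TSSs with a summit within 500 bp (y axes, percent) by kind of TSS, and for internal TSSs by distance from the gene's first TSS in kb. Bars are means, error bars SD and points the 3 replicates. Internal TSSs (31.1%) and first TSSs (34.8%) both lie far above TSSs of genes without an internal one (13.4%), and the distance ranges all lie between 28.6% and 34.3%.

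Bound and unbound internal TSSs differed in their transcripts. An internal TSS with a summit was annotated as the start of at least 2 transcripts in 36.0% of cases, against 25.6% of those without one. In the replicates the 2 shares were 36.7% ± 0.048 and 25.4% ± 0.095, with no overlap (SD, n = 3; exact sign-flip test, two-sided, p = 0.25). TSSs downstream of the gene's most upstream start codon, whose transcripts can lack the first stretch of coding sequence, made up 46.2% of those with a summit and 50.8% of those without. Bound TSSs also lay in longer genes, with a median length of 16913 bp against 13228 bp. The part of gene length in the other differences was not tested.

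Counted by gene, 714 of the 2171 protein-coding genes with an internal TSS held a member, which is 32.9% (32.6% ± 0.819 in the replicates' lists, SD, n = 3). Most of the 714 had 1 member (476 genes), 155 had 2, 51 had 3, 18 had 4, 8 had 5, 4 had 6 and 2 had 7. The share of genes with a member was 23.6% among genes with 2 promoters, 48.1% with 3, 61.2% with 4 and 71.6% with 5 or more. More promoters give more chances for a peak. Per TSS the share varied less, with 26.6% ± 0.918, 32.9% ± 0.767, 36.5% ± 0.350 and 34.3% ± 0.283 of internal TSSs bound in the same order (SD, n = 3).

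Genes with the most members were cnc and Tlk, each with 7, followed by genes with 6 that include PAN3, Rtnl1 and SNF4Agamma. The gene cnc encodes a homologue of the stress regulator Nrf2. Its members were of moderate strength, with the highest at 2.16 ± 0.945. The 7 of Tlk reached from 0.725 ± 0.244 (found in 2 replicates) to 5.15 ± 0.836. At PAN3, which encodes a subunit of an mRNA deadenylase, the highest had 4.25 ± 0.468. Members of SNF4Agamma, the gene for a regulatory subunit of AMP-activated kinase, reached 3.38 ± 0.802, and those of Rtnl1, a reticulon gene, 1.92 ± 1.24 (SD, n = 3 where no other number is given).

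Textbook genes with alternative promoters were mostly, but not all, bound. At EcR, all 4 annotated TSSs had a summit within 500 bp, and so did all 3 of Eip74EF. Eip75B, an ecdysone-induced nuclear receptor gene, had a summit at 6 of 7 TSSs, with the TSS of transcript RB as the exception. Its 5 members ranged from 1.20 ± 0.237 to 2.58 ± 0.203 (SD, n = 3). The BTB gene br had 4 members and a summit at 5 of 9 TSSs. Its highest internal value was 2.22 ± 0.509, and its most upstream TSS had no optimal summit, although it had one in the strong list of all 3 replicates. In psq itself, the gene that the transgene carries, all 5 TSSs were bound and the highest member had 5.67 ± 1.37 (SD, n = 3). Some psq members share 1 peak interval, as at 2R:10568508-10569345. Any effect of the transgene on the scores at psq was not tested.

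Few summits were found near the TSSs of the homeotic gene Antp and the metabolic gene Adh. Peaks elsewhere in these genes were not counted here. Antp had a weak member at the TSS of 6 transcripts 66388 bp into the gene, with relative scores of 0.839, 0.521 and 0.582, and its other 2 TSSs had no summit. Neither of the 2 Adh TSSs had an optimal summit, but its first TSS had one in the strong list of replicates 1 and 2.

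Gene groups differed in how often an internal promoter was bound. For 8 of 10 lists the share of genes with a member was above the 32.9% of all genes with an internal TSS, and for the neuronal and muscle lists it was below. Since some lists are rich in genes with many promoters, each count is set beside the number found when every gene is given the share of all genes with as many promoters. The lists were chosen with earlier results of these data known, and no list was tested.

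RNA-binding protein and splicing factor genes had a member in 26 of 32 cases, against 15.1 from promoter number. The 3 with the highest members were Rbfox1, with 6.40 ± 0.274, Rox8, the TIA1 homologue, with 4.73 ± 1.13, and mub, a poly(C)-binding protein gene, with 4.61 ± 1.15 (SD, n = 3). The exceptions were bru1, Rbp6, Rbp9, sm, orb and orb2. Among BTB transcription factor genes the count was 8 of 10, against 4.94, with psq, lola (4.87 ± 1.34) and chinmo (3.18 ± 0.626) at the top. The BTB count was 9, 9 and 8 in the replicates.

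Ecdysone response and nuclear receptor genes had a member in 13 of 19 cases, against 7.52 from promoter number. After EcR and Hr3 the highest was Eip78C, another ecdysone-induced nuclear receptor gene, with 4.89 ± 0.539 (SD, n = 3). No member was found at usp, the partner of EcR, nor at Eip93F, Hr4, Hr78, Blimp-1 and Kr-h1. Polycomb and trithorax group genes had one in 9 of 14 cases, against 3.55, with tara (5.90 ± 1.27) behind kis and ph-d.

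Pathway genes of Notch, Dpp, Wingless, Hedgehog, EGFR and Hippo signalling had a member in 14 of 20 cases, against 7.65. Their first TSS was bound in 6 of the 20, against 41.7% of all genes with an internal TSS. The top genes were shn, a regulator of Dpp targets with 4.36 ± 0.837, aop, an ETS repressor of EGFR signalling with 4.04 ± 0.593, and mam, the Notch coactivator, with 3.65 ± 0.685 (SD, n = 3). In the insulin, TOR and stress kinase list a member was found in 5 of 8 genes, against 2.75 from promoter number, and a bound first TSS in 7 of 8. Pdk1 had 2.45 ± 1.20 and sima, the fly HIF-1 alpha gene, 1.70 ± 0.605.

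Developmental transcription factor genes had a member in 21 of 35 cases, against 13.8, led by kay, Mnt (3.38 ± 0.299) and sd (2.95 ± 0.607). Cytoskeleton and adhesion genes had a member in 19 of 34 cases, against 15.0 from promoter number. Their highest were pyd, shot, a spectraplakin gene (4.32 ± 0.552), and rhea, the talin gene (4.01 ± 0.438). Values are mean ± SD (n = 3).

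Neuronal and muscle genes formed the other end. Only dnc and futsch of 18 neuronal excitability and synapse genes with an internal TSS had a member, against 7.18 from promoter number, and the replicates gave 1, 2 and 2. Genes without one include Syt1, brp, cac, para, Sh and slo, all of which encode channels or synaptic proteins. The dnc gene, for a cAMP phosphodiesterase, reached 2.09 ± 0.666 at a TSS 112941 bp into the gene. Of 7 muscle structure genes with an internal TSS, among them Mhc, bt and up, none had a member in the optimal list or in any replicate, and none had a bound first TSS.

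**Figure D3:**
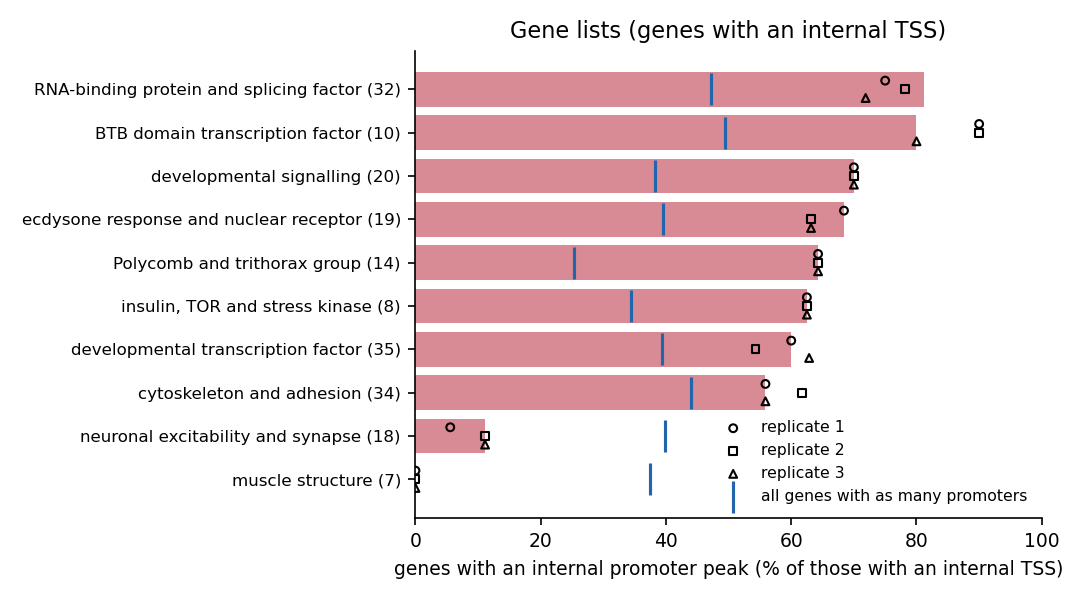
Share of genes with an internal promoter peak (x axis, percent of genes with an internal TSS, whose number is in brackets) in 10 gene lists. Bars give the optimal list, symbols the 3 replicates and blue ticks the share of all genes with as many promoters. The neuronal list (11.1%) and the muscle list (0%) lie left of their ticks, and the other 8 bars reach past theirs.

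Within genes, binding at internal and first promoters was often joint. A member and another optimal peak at the most upstream TSS were found in 427 genes. A member with no other optimal peak at that TSS was found in 287 genes. In 13 of the 287 the member summit itself also lay within 500 bp of the most upstream TSS. In 134 of those 287 a weaker peak was called there in the authors' longer list from all replicates together, so a missing peak can be a peak under the threshold. The reverse, a peak at the most upstream TSS and no member, was seen in 466 genes, and 991 genes with an internal TSS had neither.

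Neither promoter was consistently the stronger. Of 345 genes with both peaks matched in all replicates, the highest internal peak exceeded the first in all 3 replicates in 131 (37.97%) and the first exceeded it in all 3 in 98 (28.4%), with 116 mixed. From the replicates' own lists, the internal peak was the higher in 55.0%, 57.8% and 58.4% of genes (57.1% ± 1.81, SD, n = 3; exact sign-flip test against 50%, two-sided, p = 0.25). The excess was found in genes with several members, where the highest of several is set against 1 first promoter. In genes with 1 member the share was 47.0%, 52.3% and 50.7% (50.01% ± 2.72, SD, n = 3), and the all-replicate counts were 61 for the internal and 70 for the first peak among 207 genes. With 2 or more members they were 70 and 28 among 138 genes. In both groups some first-promoter peaks also lay near a TSS of another gene.

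The genes described next were picked on the ratio of internal to first peak, so their separation is a description. They are the 5 highest and 5 lowest among genes whose peaks at both promoters were in the strong list of all 3 replicates, a limit that leaves out some larger ratios, such as that of MEP-1 (log2 ratio 3.79 ± 1.45, SD, n = 3). HmgZ had 9.24, 8.80 and 7.85 at its internal promoter, against 0.554, 0.681 and 1.32 at the first. The internal peak of east, which encodes a nuclear protein, had 7.48, 6.80 and 6.76, against 0.738, 0.914 and 0.629 at the first. Its summit lay 423 bp downstream of the internal TSS. Another member at the same TSS, with its summit at −31 bp (upstream), had 4.92 ± 0.953 (SD, n = 3). EcR and CG44774 followed the same direction, with log2 ratios of internal over first of 2.61 ± 0.294 and 3.27 ± 0.552, and CG1910 had 3.41 ± 0.972 (SD, n = 3). For CG1910 the first-promoter peak also lies near a TSS of an opposite-strand gene.

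At the 5 with the lowest ratios the first promoter had the higher score. RhoGAP19D, a GTPase-activating protein gene, had 0.554, 0.511 and 0.524 at the internal promoter, against 2.39, 3.18 and 3.22 at the first. For Pi3K21B, the adaptor subunit gene of PI3-kinase, the values were 1.73, 0.876 and 0.927, against 5.46, 6.20 and 5.64. Su(z)2, a Polycomb-related gene, had a log2 ratio of −2.28 ± 0.860, Prps of −2.13 ± 0.264 and CG14502 of −2.06 ± 0.392 (SD, n = 3). The first-promoter peak of CG14502 also lies near a TSS of an opposite-strand gene.

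**Figure D4:**
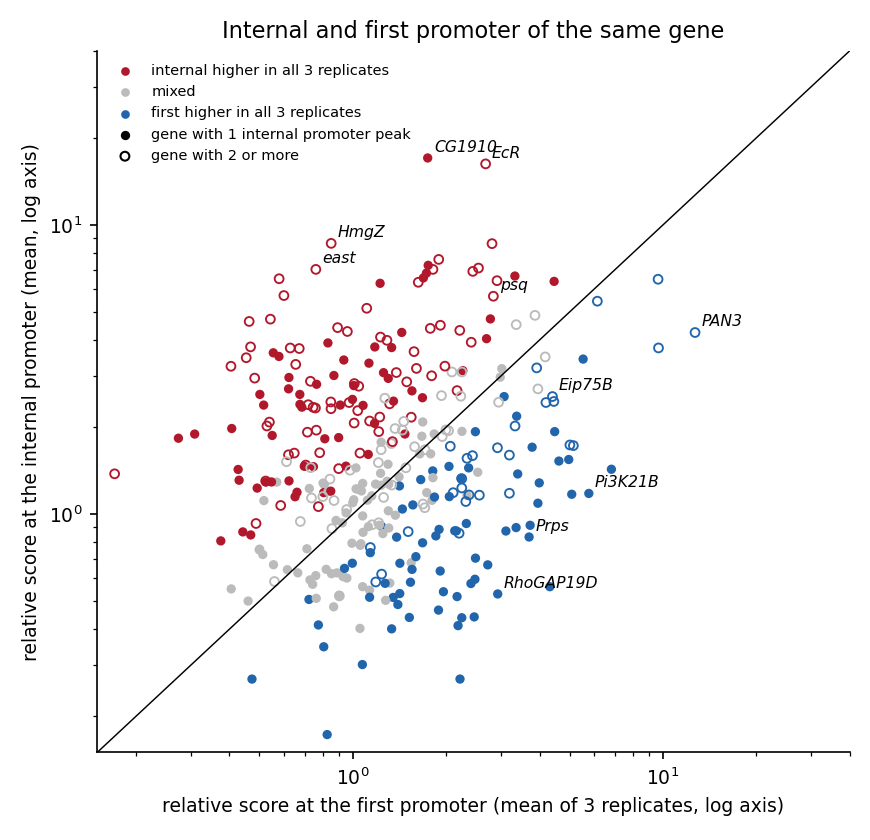
Mean relative score over 3 replicates at the highest internal promoter peak (y axis) and at the first promoter peak (x axis) of the same gene, both on log axes, for 345 genes. Colour shows whether the internal or the first peak was higher in all 3 replicates, filled points are genes with 1 internal promoter peak and the line marks equal values. Open points gather above the line and filled points lie evenly on both sides.

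The GA word was more frequent at internal promoters than at any other class compared. GAGAG, on either strand, lay within 100 bp of 60.0% of member summits, against 49.8% at first promoters, 39.6% at promoters of genes without an internal TSS and 45.3% of all optimal peaks. Windows of the same size around all annotated protein-coding TSSs held it in 24.9% of cases. In the replicates' lists the internal share was 60.2%, 59.5% and 62.0%, against 49.3%, 46.9% and 47.2% at first promoters. The classes did not overlap, and the difference was 12.7 ± 1.96 percentage points (SD, n = 3; exact sign-flip test, two-sided, p = 0.25).

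Repeats of the word followed the same order. At least 3 occurrences, overlapping ones included, were found at 28.0% of members, 16.5% of first promoters and 12.97% of promoters of genes without an internal TSS. The longer GAGAGAGA, which contains GAGAG, was at 14.1%, 9.09% and 6.63% of the same classes, in windows centred on the summit. Windows centred on all protein-coding TSSs held it in 2.18% of cases, and those centred on internal TSSs with a summit in 8.42%. CACACACA, the other repeat seen at these peaks, did not separate internal from first promoters, with 18.1% ± 0.506 against 18.5% ± 0.682 (SD, n = 3). Among these 3 promoter classes GC content followed the order of the GA words. Its median in the windows was 49.1% ± 0.287 at internal, 47.8% at first promoters in each replicate and 47.1% ± 0.574 at promoters of genes without an internal TSS. Peaks with no TSS in the window did not follow it: in the optimal list their median GC was 48.8%, and 46.1% held GAGAG, against 49.8% at first promoters. The part of GC content in the difference was not tested.

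Words of housekeeping promoters were less frequent at members than at peaks of first promoters or of promoters of genes without an internal TSS. TATCGATA, the site of the factor DREF, was at 1.01% of members (11 of 1089), 4.04% of first promoters and 7.58% of promoters of genes without an internal TSS. GGTCACAC, a word found in many core promoters of housekeeping genes, was at 1.84%, 5.05% and 6.71%. For TATCGATA the replicates gave 0.977% ± 0.052 at internal and 3.42% ± 0.163 at first promoters, without overlap (SD, n = 3; exact sign-flip test, two-sided, p = 0.25). At internal TSSs the 2 words were rare with and without a peak: in windows centred on the TSS, TATCGATA was at 1.32% of those with a summit and 0.695% of those without, and GGTCACAC at 1.62% and 0.556%. A match is only the presence of these letters.

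Stronger members carried the GA word more often. In 5 groups of 217 or 218 members, ordered from the highest to the lowest scores, GAGAG was within 100 bp of 67.9%, 67.4%, 59.9%, 58.7% and 45.9%. Members with the word had median relative scores of 1.25, 1.34 and 1.27 in the 3 replicates' lists, against 1.07, 1.04 and 1.04 without it. The 2 groups did not overlap, and the difference was 0.236 ± 0.058 (SD, n = 3; exact sign-flip test, two-sided, p = 0.25).

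The word also separated internal TSSs with a peak from those without. In windows centred on the TSS, GAGAG was within 100 bp of 50.5% ± 0.202 of internal TSSs with a summit and 27.3% ± 0.146 of those without (SD, n = 3). TATAAA, the core of the TATA box, showed the opposite, with 14.6% ± 0.056 against 22.3% ± 0.063. TCAGT, an initiator word, differed less, with 50.1% ± 0.388 against 46.8% ± 0.156. The exact sign-flip test gave p = 0.25, two-sided, for each of these 3 differences.

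Binding at internal promoters was centred upstream of the start site. Member summits had a median position of −47 bp relative to the TSS, against +4 bp at first promoters and −9 bp at promoters of genes without an internal TSS, where negative is upstream on the gene's strand. Upstream positions held 731 of the 1089 members (67.1%). The replicates gave 65.9%, 65.8% and 65.0% upstream at internal promoters, against 48.6%, 49.0% and 43.7% at first promoters, a difference of 18.5 ± 2.49 percentage points (SD, n = 3; exact sign-flip test, two-sided, p = 0.25).

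The rule leaves out summits close to opposite-strand genes, which can lie upstream of a first promoter. At TSSs with no opposite-strand TSS within 1000 bp the upstream share was 66.9% ± 0.188 at internal promoters, 52.7% ± 2.69 at first promoters and 59.2% ± 2.59 at promoters of genes without an internal TSS, still without overlap (SD, n = 3). Internal summits were also more spread, with 48.5% ± 0.339 within 100 bp of the TSS, against 57.2% ± 1.42 at first promoters.

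Internal summits were most frequent in the 50 bp on either side of the TSS, with 15.7% upstream and 14.4% downstream in the mean of the replicates, whereas the GA word was densest further upstream. Around internal TSSs with a peak, GAGAG occurred 14.5 times per kb, summed over both strands, from 100 to 50 bp upstream of the TSS, 5.08 times per kb in the next 50 bp and 2.92 times in the 50 bp downstream. At first promoters with a peak the same 3 stretches had 10.3, 3.25 and 2.40 per kb, and at internal TSSs without a summit 4.65, 1.71 and 1.58. In the replicates' lists the upstream stretch held 14.9 ± 0.192 per kb at internal and 10.1 ± 0.133 per kb at first promoters, with no overlap (SD, n = 3; exact sign-flip test, two-sided, p = 0.25).

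**Figure D5:**
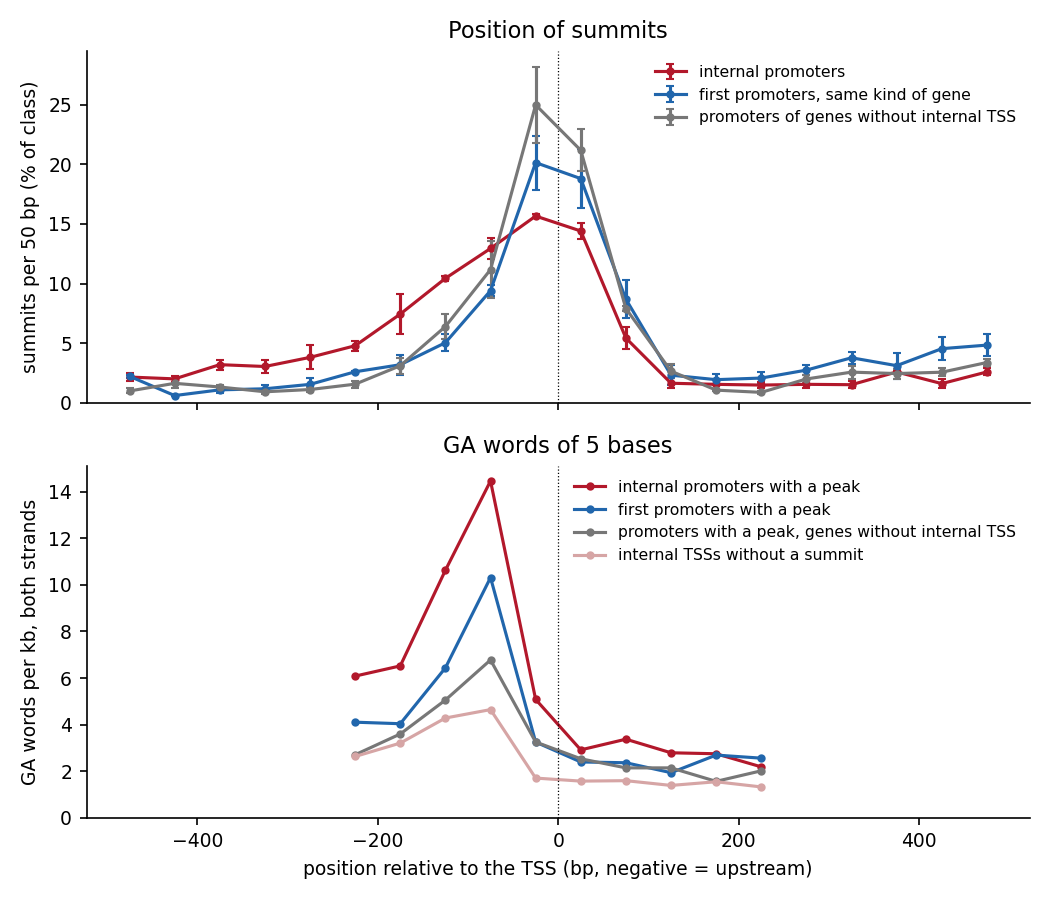
Upper panel: share of a class's summits per 50 bp (y axis, mean of 3 replicates, error bars SD) by position relative to the TSS. Lower panel: occurrences of the GA word of 5 bases per kb in the same coordinates, on both strands, for the optimal list. Internal promoters have a broad upstream shoulder of summits and the highest density of GA words, 14.5 per kb from 100 to 50 bp upstream.

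The 120 bases before an internal TSS, given as above and ending at the base before the start, show how the word is placed. The Eip74EF and mub windows, picked after their values were seen, carry clusters of the word. At Eip74EF the member with the higher optimal-list score, at +81 bp, had no GAGAG within 100 bp of its summit. The other Eip74EF member, at −233 bp, had 2 occurrences, and the mub member had 4. The Rbfox1 window, from the highest member of its list, carries none, and 1 occurrence lies within 100 bp of the summit, outside the window shown.
Eip74EF upstream of the TSS, 3L:17576627-17576746, minus strand: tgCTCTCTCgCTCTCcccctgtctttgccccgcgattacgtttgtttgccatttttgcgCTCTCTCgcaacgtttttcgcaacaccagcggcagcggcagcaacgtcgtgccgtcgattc
mub upstream of the TSS, 3L:21879457-21879576, plus strand: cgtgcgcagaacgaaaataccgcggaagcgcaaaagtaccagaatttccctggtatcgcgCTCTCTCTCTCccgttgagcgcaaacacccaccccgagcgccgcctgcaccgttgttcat
Rbfox1 upstream of the TSS, 3L:10515883-10516002, plus strand: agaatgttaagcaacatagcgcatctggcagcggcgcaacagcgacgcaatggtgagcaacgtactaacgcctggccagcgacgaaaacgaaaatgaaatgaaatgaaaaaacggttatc

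Most members lie in noncoding parts of their gene. The summit was in an intron for 697 (64.0%), in a 5′ UTR exon for 366 (33.6%), in coding sequence for 23 (2.11%) and in a 3′ UTR exon for 3 (0.275%). Another optimal summit lay within 1000 bp of 61.1% of members, against 67.5% at first promoters, 43.9% at promoters of genes without an internal TSS and 58.9% at peaks with no TSS in the window. In the replicates' lists these shares were 62.0% ± 1.72, 64.2% ± 1.15, 43.2% ± 2.43 and 59.6% ± 2.77 (SD, n = 3), so internal and first promoters differed by about their spread.

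At the edge of the 500 bp window, the 5 members with the summit farthest from the TSS had mean relative scores of 1.43, 0.758, 1.80, 2.95 and 0.780, and the 5 peaks just outside had 7.15, 0.837, 1.14, 2.34 and 2.34. At the limit on distance from the first TSS, the 5 members just inside had 1.59, 1.78, 2.68, 7.79 and 1.49, the fourth of them at Den1, a gene for a protease of the Nedd8 system. The 5 peaks just outside that limit, whose TSS lies 496 to 500 bp downstream, had 0.390, 0.997, 1.06, 0.429 and 1.81.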

How the data were processed

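The deposited files are peak lists on dm6. The authors called peaks for each replicate and for the pool of replicates, with 1 control alignment throughout, and thresholded an optimal list by the irreproducible discovery rate, as the deposited file listing states. Which caller and aligner were used is not given in the sources used here. The score and the summit offset, another deposited column, are the authors' own values per peak, and the score only ranks and describes peaks within a list. Read depth is unknown, so a missing peak means only that none was called. The p-values rest on the 3 replicates alone. A sign-flip p is the lowest possible whenever all 3 differences share a direction, whatever their size or spread. The replicate lists hold 28037, 28294 and 24291 peaks.

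Annotation was Ensembl release 115 without transposable elements, and sequence the RefSeq copy of dm6. A member's score in a replicate is that of the highest peak with a summit within 200 bp, divided by the median of the 10138 highest in that replicate. Classes were compared with an exact paired sign-flip test over the replicates (Python 3.11.15, numpy 2.4.6, pandas 2.3.3, scipy 1.17.1), and class assignment was tested on simulated summits. Motif windows reach 100 bp to each side of a summit. Named genes are those of the 20 members with the highest optimal-list scores found in all 3 replicates, up to 3 per gene list, the 5 with most members, the 5 highest and 5 lowest ratios of internal to first promoter among genes with both peaks in the strong list of all 3 replicates, and 7 textbook genes. The members and lists were chosen with earlier results of these data known. The dm3 lists, signal tracks and the control were not analysed here. Of 402 listed names, 12 were matched through another name and 1 had no match.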

Additional observations from a re-analysis of the deposited data

How the results depend on the processing

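The 5 tested differences between internal and first promoters kept their direction in 36 of 37 recalculations. The exception is the share of genes with the higher internal peak, which was 48.1% in genes with 1 member, an alternative chosen after seeing the data, as were those for summit position. Over the other alternatives it stayed above 50%. The share of nuclear summits at internal promoters was 8.18% with a window of 200 bp, 9.04% with internal TSSs more than 1000 bp downstream, 13.1% in the upper 50% of the list by score, 11.2% with only protein-coding TSSs, and 12.1% to 12.4% without one replicate, where only peaks found in both others enter. The share of genes with a member was 30.5% at 200 bp, 22.1% in the upper 50%, 33.9% with only protein-coding TSSs and 25.8% to 26.8% without one replicate. The share of members found in all 3 replicates was 92.3% in the upper 50% and 58.1% with summits matched within 100 bp. The causes of these shifts were not tested beyond the fewer peaks each stricter setting leaves.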
